A study of Mus musculus with 12 samples.

Results

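The control (DMSO) libraries of mouse blastocysts were described here as a baseline transcriptome, with no comparison against inhibitor-treated embryos. They were chosen as every library of the series labelled DMSO, which gave 6 of 12 libraries. The study treated blastocysts with SB220025, an inhibitor of p38 mitogen-activated protein kinases (p38-MAPKi), and sequenced polyadenylated RNA at several times. The other 6 libraries came from inhibitor-treated embryos and are not described here.

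The embryos came from F1 (C57Bl6 x CBA/W) mice after superovulation of the females and mating with F1 males. They were flushed at the 2-cell stage, grown in KSOM medium with added amino acids to E3.5 (day 3.5 after fertilisation), and then kept for 4, 7 or 10 h in medium with a small share of the solvent dimethyl sulfoxide, matched to the volume that carried the inhibitor in treated embryos. Each time point had 2 libraries, and each library was made from 30 pooled embryos, so neither embryos nor cell lineages were measured singly. All 6 control libraries carried the solvent, and untreated embryos were not analysed here. The study calls the pools of a time biological duplicates, but whether they came from separate collections of embryos is not stated, so p-values measure only the spread between these pools.

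A blastocyst is a hollow ball of cells. Its outer trophectoderm (TE) is a transporting epithelium that pumps fluid into the cavity and later forms the placenta, while the inner cell mass gives the epiblast (EPI), the source of the fetus, and the primitive endoderm (PrE), the source of the yolk sac lining. At this stage the embryo runs on its own transcripts, maternal messages have largely been degraded, and the genes of later tissues have not yet been switched on.

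Levels are log2 RPKM (reads scaled by the length of the transcript and by the reads of the library), as deposited, and the mean level of a gene is the mean of its 6 log2 values. A gene with a mean of at least 0, which is 1 RPKM, was called present, and any other gene absent. By this rule 10593 of 34245 genes (30.9%) were present. Depth was worked out from the values of single-transcript genes without a read, taken as 0.9 of a read, and their annotated lengths. It was 17097676 and 18262011 reads at 4 h, 21112832 and 23352633 at 7 h, and 19039078 and 23287564 at 10 h for replicates 1 and 2. In all, 13657 genes (39.9%) had no read in any of the 6 libraries. The table writes such a gene as 0.9 of a read, so its negative level reflects only its length and the depth of the library, and at 1000 bases it lies between -4.25 and -4.70. For 13 very short genes, such as the immunoglobulin segment Ighd5-6 (1.89), this convention alone put the mean above 0.

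The number of genes at or above 0 was 10408 and 10729 at 4 h, 10745 and 10660 at 7 h, and 10858 and 10734 at 10 h. Of all genes, 9971 were at or above 0 in every library, 22691 were below it in every library and 1583 lay on both sides. The call of a gene without a read is fixed by its length and the depth. Of the 20588 genes with a read, 1562 (7.59%) lay on both sides of 0, and the rest had the same call in each of the 6 libraries. The median level was -3.45 over all genes and 3.15 over genes present, whose quartiles were 1.76 and 4.48. Among absent genes, 13644 had no read in any library and 10008 had at least 1.

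**Figure D1:**
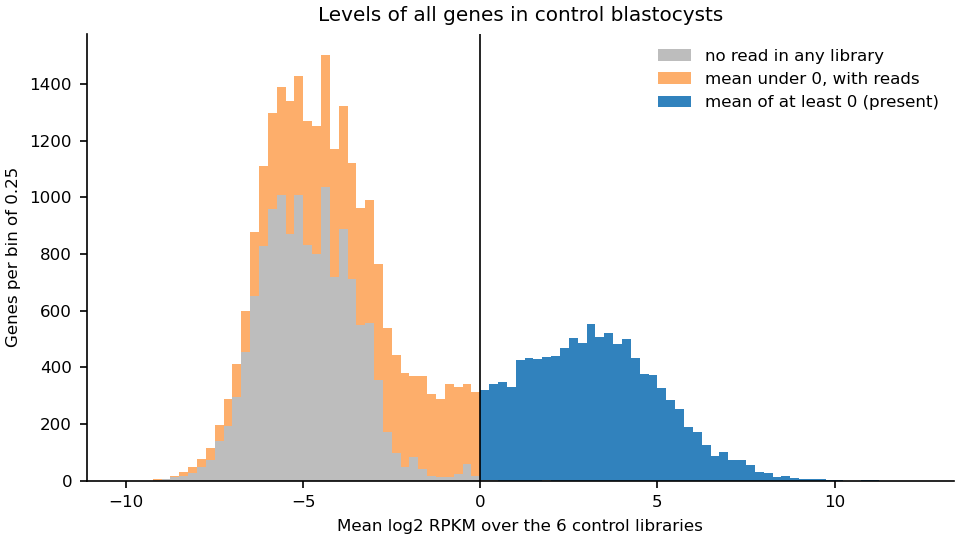
Number of genes (vertical axis, bins of 0.25) by mean log2 RPKM over the 6 control libraries (horizontal axis), stacked by whether any read was counted. A lower peak of genes with few or no reads lies left of 0, and the 10593 genes called present form a broad peak around their median of 3.15.

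Protein-coding genes made up 10021 of the genes present, out of 21549 in the table, and carried 94.8% of summed RPKM. Long intergenic noncoding RNAs were present in 124 of 3840 cases. A total of 4919 genes reached a mean of 10 RPKM, 467 reached 100 RPKM with 42.6%, and 10 reached 1000 RPKM with 7.75%. Most of the summed level thus lay in genes of moderate level and not in the highest handful. On the Y chromosome 3 of 744 genes were present, led by Eif2s3y (3.31) and Ddx3y (3.14).

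One library stood apart. In replicate 1 at 4 h, Gm42418 reached a log2 RPKM of 14.63, against 10.97 to 11.88 in the other 5 libraries, and took 9.38% of summed RPKM, against 0.730% to 1.37%. Gm42418 ranked highest of all genes, with a mean of 11.91 ± 1.38 (SD, n = 6). RefSeq lists this symbol as a synonym of Rn18s-rs5, a sequence related to 18S ribosomal RNA, so its level is reported as uncertain. The share of the 100 highest genes was 28.0% in that library and 20.0% to 21.7% in the others, and without Gm42418, an alternative added after its value was seen, it was 19.4% to 20.8% in all 6.

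After Gm42418, the highest messages coded for ribosomal proteins, a lysosomal protein, a chaperone and the cytoskeleton. Rpl8, of the large ribosomal subunit, had values from 11.16 to 11.37 with a median of 11.21. Psap, the precursor of the saposins that help break down sphingolipids in lysosomes, ranged from 10.75 to 11.19 with a median of 11.07. Rplp1, a stalk protein of the ribosome, ranged from 10.72 to 11.15 with a mean of 10.99. Rpl8 exceeded Rplp1 in 6 of 6 libraries. The range of Psap overlapped both, and the order was otherwise not fixed: Rpl8 exceeded Psap in 5 of 6 libraries, Psap exceeded Rplp1 in 4, and Rplp1 exceeded Hsp90ab1 in 3.

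Hsp90ab1, a constitutive HSP90 chaperone, averaged 10.92 ± 0.17 (SD, n = 6), and Calcoco2, a receptor of selective autophagy, 10.54 ± 0.15. Actb, cytoplasmic actin, averaged 10.47 ± 0.13 and Krt18, a keratin of simple epithelia, 10.14 ± 0.26. Dppa3, a maternal and pluripotency factor that protects methylated DNA from demethylation, had rank 10 with 10.02 ± 0.13. The next 20 places held 5 further ribosomal proteins or their read-through loci, the elongation factors Eef2 (9.92) and Eef1a1 (9.83), Eif5a (9.57), the purine salvage enzyme Hprt (9.62), the iron store Fth1 (9.51), the tight-junction protein Cldn4 (9.36), Dppa5a (9.33), the lysosomal protease Ctsd, Hsp90aa1 (9.24) and Isyna1, the enzyme that makes inositol phosphate from glucose 6-phosphate.

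Membership of the top was steadier than its order. Of the 30 highest genes by mean, 23 stood among the 30 highest of every library, and 77 genes were among the 100 highest in all 6, out of 124 that were so in any. Some places are uncertain because genes overlap: 6 of the 30 highest lie on the same strand over a gene of at least 64 RPKM, such as Gm45713 (9.67) over Rpl13a, Gm20509 (9.43) over Khdc3, and Gm20390 (9.21) over Nme1 and Nme2. Others share sequence with copies elsewhere: 60.0% of the 50-base windows of Rplp1 and 57.9% of those of Eef1a1 also occur in other genes, against 0 for Psap, and how reads with several matches were counted is not stated. Of 1155 genes measured, 215 had at least 10% of windows elsewhere. The same uncertainty holds where it is not repeated, as for Ftl1 (74.8%), Hsp90aa1 (58.5%), Rps6 (55.1%) and Npm1 (40.9%). It also holds for Dppa5a (38.6%), Dppa4 (35.9%), Rps15 (31.5%) and Dppa2 (29.1%).

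**Figure D2:**
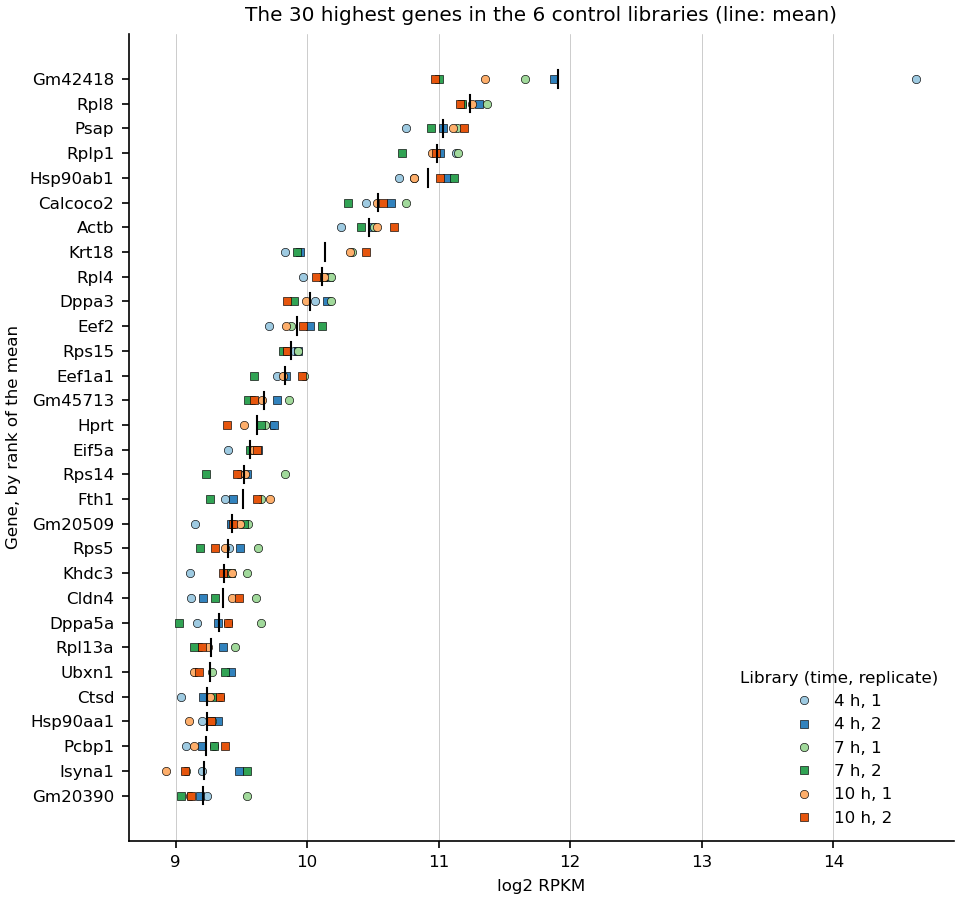
The 30 genes with the highest mean log2 RPKM (vertical axis, by rank) with the log2 RPKM of each of the 6 control libraries (horizontal axis, points) and their mean (short line). Gm42418 at 14.63 in replicate 1 at 4 h lies far to the right, while the points of most other genes lie within 1 log2 unit.

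Genes of the translation machinery filled much of the upper range. All 33 small-subunit and all 48 large-subunit ribosomal protein genes were present, with median levels of 7.07 and 7.14 and shares of 2.79% and 4.52% of summed RPKM. Rps15 was the highest of the small subunit (9.88 ± 0.05). Rpl21 was the lowest of the large subunit at 1.57, and 26.2% of its windows also occur in other genes, so its level is uncertain. Of 43 translation factors, 41 were present with a median of 6.75, and the absent ones were the tissue-restricted isoforms Eif5a2 (-1.90) and Eef1a2. All 35 genes of ribosomal RNA synthesis and ribosome assembly were present (median 5.33), led by the nucleolar proteins Npm1 (8.78), Nhp2 (8.04) and Ncl (7.53).

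The libraries carried the markers of all 3 blastocyst lineages. Of the markers that define each, 10 of 11 for TE, 8 of 8 for EPI or inner cell mass and 7 of 8 for PrE were present, and the absent ones were Elf5 and Sox7. Since whole embryos were pooled, fewer cells of a type and less RNA per cell cannot be told apart in any lineage level given here.

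TE transcription factors were present in 12 of 15 cases, with a median of 4.55. Cdx2, which sets the TE programme, ranged from 7.57 to 7.89 with a median of 7.68. Gata3, another TE regulator, ranged from 6.49 to 6.85 with a median of 6.72. For both, the lowest of the 6 libraries was replicate 2 at 7 h. Klf5 averaged 7.48, Tfap2c 5.53, Tead4 5.36 and Eomes 4.76. Elf5, a factor of trophoblast stem cells, was below 0 in every library, from -3.01 to -0.28, and Hand1, a factor of later giant cells, averaged 0.68 with values on both sides of 0. Esx1 (-1.34) and Fosl1 (-1.34) were the other absent members.

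All 28 genes of the TE epithelium were present, with a median of 5.98. The keratin pair had Krt18 at 9.83, 9.95, 10.34, 9.92, 10.33 and 10.45, and Krt8 at 8.90, 8.99, 9.40, 8.89, 9.34 and 9.54, in the order 4, 7 and 10 h with replicate 1 before replicate 2. Krt18 exceeded its partner by 0.96 ± 0.05 in 6 of 6 libraries, and both were lowest in the 4 h libraries and replicate 2 at 7 h. Of the windows of Krt8, 26.9% also occur in other genes, against 0.72% for Krt18. The level of Krt8 and the size of this difference are thus uncertain. The other keratins Krt7 (2.97) and Krt19 (0.54) were far lower. Among junction proteins, Cldn4 (9.36), Epcam (9.01), Cldn7 (7.89) and E-cadherin, Cdh1 (7.47), led.

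Of 22 ion pumps, exchangers and water channels that serve cavity filling, 10 were present (45.5%), near the 46.5% of protein-coding genes. Atp1b1 (6.36) and Atp1b3 (5.71), beta subunits of the sodium pump, were present, while Atp1a4, a testis isoform, had no read. Aquaporins present were Aqp3 (6.61 ± 0.24), Aqp9 (4.06) and Aqp8 (2.02), and Aqp5 (-4.65) and Aqp1 (-5.47) were absent. The exchanger Slc9a3 had no read.

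Of 25 EPI and pluripotency genes 23 were present, with a median of 5.32. Pou5f1 (Oct4), the factor required for the inner cell mass, ranged from 8.45 to 8.86 with a median of 8.67. Nanog, which marks EPI, had values of 7.04 and 7.14 at 4 h, 6.88 and 6.94 at 7 h, and 6.80 and 6.74 at 10 h. Sox2, the partner of Oct4, ranged from 5.18 to 5.51 with a median of 5.31. Nanog was below Pou5f1 by 1.75 in the mean and in all 6 libraries, and its lowest values were those at 10 h, although it did not pass the test over time given further on. Dppa2 (6.76), Tfcp2l1 (6.46), Zfp42 (6.22) and Dppa4 (5.95) were also high, and Fgf4, the ligand that EPI cells send to PrE, was at 2.10 ± 0.11. Enox1 (-2.69) and Nr0b1 (-4.22) were absent.

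Of 27 PrE genes 21 were present, with a lower median of 2.10. Gata6, the first PrE factor, ranged from 6.44 to 7.02 with a median of 6.72. Gata4, which follows it, was at 0.21, 0.89, 0.92, 0.78, 1.95 and 1.23, and Sox17 at 0.62, 1.13, 1.90, 0.95, 2.13 and 1.47 in the same library order as the keratins. Both spread over more than 1 log2 unit, with replicate 1 at 4 h lowest and replicate 1 at 10 h highest. Pdgfra, a receptor of PrE precursors, averaged 3.06. The late factor Sox7 was at -3.77, Foxa2 at -5.71, and the yolk sac product Ttr had no read. Basement membrane genes Lamb1 (4.73), Lamc1 (4.59) and Col4a1 (4.32) were present, as were the endocytic proteins Lrp2 (6.34) and Dab2 (5.73), which stand on the TE list too. Nanog exceeded Gata6 in 4 of 6 libraries by a mean of 0.21 ± 0.26, so the pair could not be ordered.

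**Figure D3:**
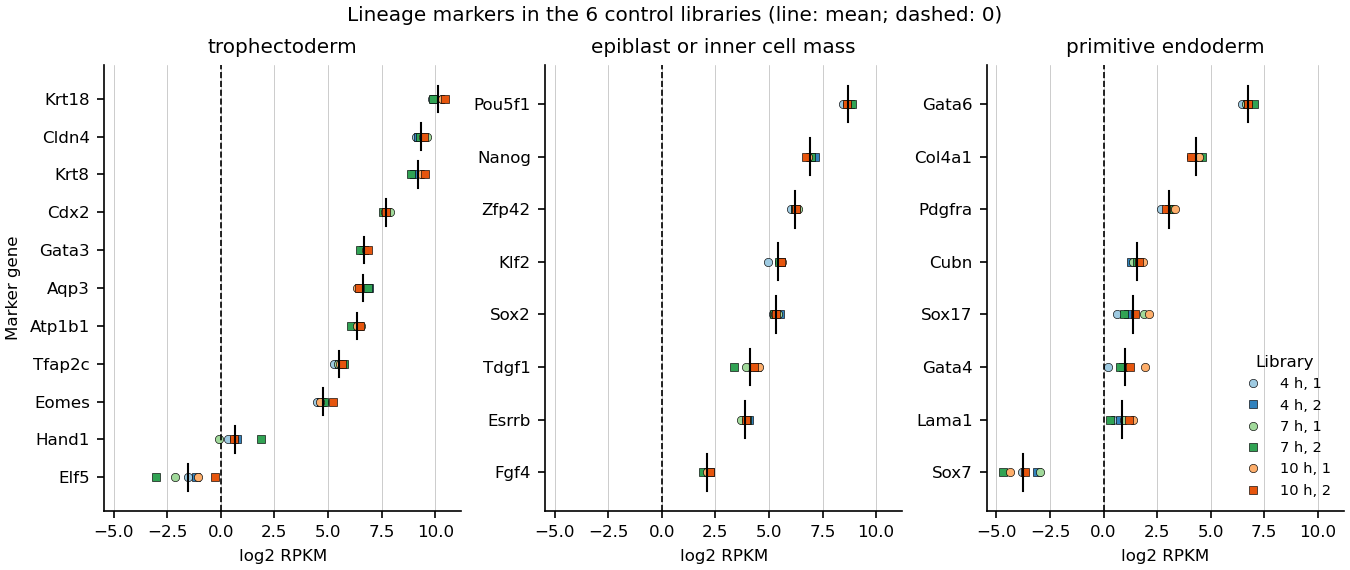
Log2 RPKM (horizontal axis) of the markers of TE, EPI or inner cell mass, and PrE (vertical axis) in each of the 6 control libraries (points) with the mean (short line) and the level of 0 (dashed). Elf5 and Sox7 lie left of 0 in all 6 libraries, and Gata4 and Sox17 spread more than Gata6.

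Cells that could have come along with the embryos left few markers. Of 7 oocyte markers only Zp3, of the egg coat, was present, at 0.49 ± 0.29, and the summed level of the 7 was 2.61 to 3.34 RPKM in the 6 libraries. Of 6 cumulus or granulosa markers only Amhr2, the receptor of anti-Mullerian hormone, was present at 1.83, Fshr and Has2 had no read, and the sum was 3.16 to 5.53 RPKM. None of 5 sperm markers, led by Prm1 (-2.52), none of 4 oviduct markers, led by Ovgp1 (-0.91), and none of 5 blood markers, led by Hba-a1 (-2.31), was present. The blood markers S100a8, Hbb-bs, Lyz2 and Ptprc, the sperm markers Tnp1 and Akap4, and the oviduct marker Muc16 had no read in any library. Of the windows of Hba-a1 and Hbb-bs, 67.5% and 65.8% also occur in other genes, so the globin levels are uncertain, while S100a8 and Ptprc had no such window. The sums, which include 0.9 of a read for each unread gene, were 0.469 to 1.17 RPKM for sperm, 0.523 to 0.672 for oviduct and 0.236 to 0.763 for blood. On the longer lists, 1 of 16 cumulus genes (Amhr2), 0 of 10 sperm genes, 1 of 10 oviduct genes (Wfdc2, 5.81) and 1 of 16 blood genes (Cd68, 2.09) were present, against 30.9% of all genes. With RPKM rescaled to the same sum in every library, every value rises. The oviduct genes Ovgp1 (0.96) and Muc1 (0.62) and the sperm gene Odf1 (0.12) then lay above 0. The part of such cells in the levels of Wfdc2, Cd68 or Amhr2 was not tested.

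Of 20 oocyte and maternal genes 6 were present (30.0%), near the 30.9% of all genes and below the 46.5% of protein-coding genes. Khdc3, a part of the maternal complex under the cell membrane, was among the 30 highest genes of all at 9.37 ± 0.14, and its partners Ooep (4.17), Tle6 (1.13) and Padi6 (0.75) were present, while Nlrp5 (-2.68) of the same complex was absent. Oog1 (-5.59), Zar1 (-5.56) and Nobox (-5.11) were the lowest, and 88.6% of the windows of Oog1 and 30.4% of those of Zar1 occur in other genes, so these levels are uncertain.

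Of genes of later stages, 15.4% on the gastrulation and germ layer list, 21.1% on the later trophoblast list and 17.9% of the organ markers were present, against 30.9% of all genes, most of which were thus absent too. Of 26 gastrulation and germ layer genes 4 were present, namely Dnmt3b (4.95), Eomes (4.76), Gsc (3.35) and Cdx1 (0.55), and 8, among them Lefty2, Lhx1 and Sox1, had no read. Of 19 later trophoblast genes 4 were present, led by Cdkn1c (2.49), and Tpbpa, Synb and Psg17 had no read, though 76.1% of the windows of Synb occur in other genes. Of 28 organ markers 5 were present, led by Apoa1 (5.02), an apolipoprotein of liver and yolk sac, and Mbp (3.15). Alb, Ins1 and Ins2 were among the 14 without a read.

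Promoters differed in base composition between genes present and absent. RefSeq promoters (build GRCm38.p6) with a start within 1000 bases of the gene start in the table were found for 16495 genes. Over the 250 bases before the start, the median number of CG pairs was 17 for 7455 genes present, 4 for 9040 genes absent and 10 over all. At least 1 CG stood in 99.5% of the former, 90.6% of the latter and 94.6% of all promoters of this length. The letters TATAAA, searched on both strands in the last 50 bases before the start, stood in 1.41% of promoters of genes present, 5.81% of genes absent and 3.82% of all. These shares are descriptions of letters and were not tested.

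The 100 bases before the start are printed for 6 genes, chosen after their levels were seen, to show high genes, lineage factors, and genes low or unread in most libraries. Each runs 5′ to 3′ on the strand of its gene, with CG pairs in capitals, from RefSeq on GRCm38.p6. Psap (mean level 11.03) is at chr10:60277528-60277627 on the plus strand, Krt18 (10.14) at chr15:102028116-102028215 on the plus strand, Cdx2 (7.70) at chr5:147307250-147307349 on the minus strand, Nanog (6.92) at chr6:122707389-122707488 on the plus strand, Zscan4d (-3.19) at chr7:11166149-11166248 on the minus strand, and Alb (-5.72) at chr5:90460770-90460869 on the plus strand. The windows hold 11, 9, 8, 1, 3 and 1 CG pairs in that order, so Nanog, although high, had as few as the unread Alb.
Psap: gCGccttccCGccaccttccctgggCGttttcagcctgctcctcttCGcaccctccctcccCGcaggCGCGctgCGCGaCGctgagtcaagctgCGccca
Krt18: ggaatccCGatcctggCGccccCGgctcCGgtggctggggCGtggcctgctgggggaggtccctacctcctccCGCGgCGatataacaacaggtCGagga
Cdx2: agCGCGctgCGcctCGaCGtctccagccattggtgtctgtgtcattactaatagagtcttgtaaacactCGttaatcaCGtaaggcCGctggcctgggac
Nanog: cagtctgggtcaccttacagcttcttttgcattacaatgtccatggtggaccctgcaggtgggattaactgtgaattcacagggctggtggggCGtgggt
Zscan4d: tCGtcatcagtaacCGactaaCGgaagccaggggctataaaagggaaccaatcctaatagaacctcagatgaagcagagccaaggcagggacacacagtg
Alb: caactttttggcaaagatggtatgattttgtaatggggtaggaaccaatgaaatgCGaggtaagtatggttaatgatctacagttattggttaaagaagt

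Of 28 genes of the p38-MAPK cascade 25 were present, with a median of 2.56. The cascade runs from MAP3 kinases through the MAP2 kinases Map2k3 and Map2k6 to the p38 kinases, which act on further kinases such as Mapkapk2 and on transcription factors. Among the 4 p38 kinases, Mapk14 (p38alpha) ranged from 4.56 to 4.74 with a median of 4.69. Mapk13 (p38delta) ranged from 3.37 to 3.63 with a median of 3.58. Mapk11 (p38beta) ranged from 0.05 to 1.11 with a median of 0.69. Mapk12 (p38gamma) ranged from -1.76 to -0.58 and was absent. None of these ranges overlapped, and each kinase exceeded the next in 6 of 6 libraries, by means of 1.14, 2.88 and 1.66.

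Upstream of p38, Map2k3 (4.84) was higher than Map2k6 (2.52), and Map2k4 (4.53), shared with JNK, and the MAP3 kinases Map3k4 (3.83), Map3k7 (3.44) and Map3k5 (1.52) were present. Downstream, Mknk2 (5.06), Mapkapk5 (4.09), Mapkapk2 (3.89) and Mapkapk3 (3.56) were present, and the nuclear kinase Rps6ka5 (-0.12) and the muscle and neural factor Mef2c (no read) were absent. Of the windows of Mapkapk5, 78.2% also occur in genes that overlap it, so its level is uncertain. Mybbp1a, a nucleolar protein on this list and on that of ribosomal RNA synthesis, was the highest member at 6.60. The phosphatases that act on p38, Dusp10 (3.45), Dusp1 (2.04) and Dusp16 (1.44), were present.

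Of 35 FGF-ERK genes 27 were present (median 3.01). The receptors Fgfr1 (3.89) and Fgfr2 (3.84) could not be ordered, with Fgfr1 higher in 4 of 6 libraries, whereas Fgfr4 (1.46) was lower and Fgfr3 (-0.21) absent. Of the ligands on the list Fgf4 (2.10) and Fgf10 (0.50) were present, and Fgf8 and Fgf5, of later embryos, had no read. Feedback genes were uneven: Spry2 was at 5.60 ± 0.11, Dusp6 at 2.24 and Spry4 at -1.33. The kinase Mapk3 (ERK1) was at 3.01.

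The growth factor and nutrient pathway from PDGF to mTOR had 28 of 31 genes present (median 3.27), led by Eif4ebp1 (6.77), a translation repressor that mTOR inactivates, and Rps6 (6.41). The ligand Pdgfa was at 5.66 and its receptor Pdgfra at 3.06, while Pdgfb (-0.89), Pdgfc (-3.85) and the receptor Pdgfrb (-2.05) were absent, and Mtor itself was at 3.07. Of insulin and IGF genes, 7 of 17 were present (41.2%), against 30.9% of all genes and 46.5% of protein-coding genes. Their median was -2.49. Igf2r, which clears IGF2, was at 5.10 and the insulin receptor Insr at 0.79, but Igf1r (-3.31), Irs1 (-7.46) and Igf1 (-7.77) were absent and Ins1 and Ins2 had no read.

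Hippo genes were nearly all present, 20 of 22 with a median of 3.00. The factor Tead4 (5.36), which acts with YAP in TE, led, and its coactivators Yap1 (4.80) and Wwtr1 (4.70) overlapped. The adaptors Amotl2 (4.59) and Amot (4.12) were present, while Amotl1 (-1.45) and the target Ankrd1 (-5.12) were absent. Wnt genes were present in 26 of 41 cases (median 0.63), led by beta-catenin, Ctnnb1 (6.76). The ligands Wnt7b (5.26), Wnt3a (4.27) and Wnt6 (3.31) kept this order in 6 of 6 libraries, whereas Wls (-3.10), the carrier that brings Wnt proteins to the surface, was absent and Lef1, Wnt5a and Wnt7a had no read.

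Of 33 BMP, activin and Nodal genes 16 were present (48.5%), near the 46.5% of protein-coding genes, with a median of -0.10. The target Id2 (6.22), the shared mediator Smad4 (4.25), the Nodal co-receptor Tdgf1 (4.12) and the receptor Bmpr1a (4.06) led. Nodal itself was at -2.82, Lefty1 at -4.27, and Lefty2 and Bmpr1b had no read. Of 13 LIF-STAT3 genes 10 were present (median 1.32), led by Socs1 (4.35) and Stat3 (4.28). Lif was at 2.06 and the shared receptor chain Il6st at 0.46, but Lifr, the specific chain, was at -1.44 and below 0 in all 6 libraries. Ligands and receptors of 1 pathway were therefore not always on the same side of the level called present.

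Notch and Hedgehog were the signalling lists with the smallest shares of members present. Notch had 7 of 19 genes (median -2.81), with Hes1 (3.38), Jag2 (2.93), Maml1 (2.67) and Rbpj (1.80) highest, and Hey2 (-6.23), Dll4 (-5.86), Heyl (-5.53) and Jag1 (-5.52) lowest. Of 11 Hedgehog genes 1 was present, Sufu at 0.25, which represses the pathway. Ptch1 (-0.28) and Smo (-0.66) lay just below, Shh was at -5.59, and Gli2 and Hhip had no read. With RPKM rescaled to the same sum in every library, which raises every value, Ptch1 was at 1.59 and Smo at 1.21. The shares of genes present on the Notch and Hedgehog lists were 36.8% and 9.09%, against 30.9% of all genes and 46.5% of protein-coding genes.

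Respiratory chain genes of the nucleus were present in 63 of 66 cases (median 6.08), led by the ATP synthase subunits Atp5a1 (8.80) and Atp5b (8.75). The muscle isoforms Cox6a2 (-2.73) and Cox8b (no read) and the lung isoform Cox4i2 (-3.13) were absent. The 13 genes of the mitochondrial genome in the table, such as mt-Co1 and mt-Nd5, had no read in any library. Whether reads of the mitochondrial chromosome entered the authors' counting is not stated, so no level can be given for them.

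Of 35 genes of glycolysis and glucose uptake 22 were present. Aldoa (8.06), Pdha1 (6.71) and Pkm (6.54) led, and the glucose transporters were ordered Slc2a3 (6.22) over Slc2a1 (5.34), in 6 of 6 libraries, with Slc2a2 (-6.72) absent. Gapdh, in the middle of the same pathway, ranged from 1.31 to 1.60 with a median of 1.53, lower than Aldoa by a difference of 6.56. Copies of its sequence occur in 208 pseudogenes and 27.2% of its windows match elsewhere, so this level is uncertain. Ldha (1.74, with 16.6% of windows elsewhere) is uncertain in the same way. Ldhb was at 0.04, with 27.0% of windows elsewhere, so its level is uncertain as well.

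Cholesterol synthesis was complete, with all 23 genes present and a median of 5.35. Pmvk (6.78), Ebp (6.48) and Insig1 (6.28) were highest. The summed level of the 23 genes was 790 and 899 RPKM at 4 h, 1089 and 1049 at 7 h, and 947 and 1249 at 10 h. All 4 later libraries lay above both at 4 h, as they did in 10 of the 42 lists. Among them were immediate early genes (262 and 324 RPKM at 4 h, 378 to 412 later) and LIF-STAT3 (59.3 and 68.6 RPKM at 4 h, 76.8 to 87.2 later). Replicate 1 at 4 h also had the lowest median level of genes present, 2.97 against 3.16 to 3.2 in the other libraries. The libraries at 4 h also had the fewest reads, 17097676 and 18262011. The part of this shift and of depth in the sums was not tested. How many single genes had both 4 h libraries below the other 4 was not counted, and some lists share members. The 10 of 42 lists are thus a description only. In the limma test over time given further on, 0 of the 23 passed, against 0.0453% of all genes tested, and 10 had an unadjusted p under 0.05, against 7.18%. An unadjusted p under 0.05 was also found for 6 of 13 immediate early genes tested, 4 of 10 LIF-STAT3 genes and 8 of 26 stress genes. In these lists too, 0 passed the adjustment. Other lists had no gene with such a p, such as translation factors (0 of 41) and chaperones (0 of 23). The lists named here are only some of the 42, and members of a list are not independent. These counts are thus a description and no test of a list. Of 27 amino acid transporters 17 were present, led by Slc3a2 (5.55) and Slc7a6 (5.49), and Slc7a11, the cystine exchanger, was at -7.85. Iron and redox genes were present in 28 of 30 cases (median 5.66), led by Fth1 (9.51), Ftl1 (8.88), Txn1 (8.47) and Mt2 (8.33).

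Cytoskeletal genes were present in 31 of 33 cases (median 5.80), and of these Tubb3 (-1.17), of neurons, and Acta2 (-5.03), of smooth muscle, were the absent ones. Cell cycle genes were present in 38 of 42 cases (median 4.40), led by the mitotic activator Cdc20 (7.70), Aurka (6.89) and Ccnb2 (6.55). Among D cyclins, Ccnd3 was at 4.46, above Ccnd1 by a difference of 5.47 and above Ccnd2 at -6.13, an order kept in 6 of 6 libraries. The CDK inhibitor Cdkn1a was at 6.26.

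Chaperones were present in 23 of 26 cases, with a median of 6.82 and the smallest median SD of the lists, 0.09. The heat-inducible Hspa1b (-0.25), Hspa1a (-3.74) and the testis gene Hspa1l (no read) were the absent ones, and the constitutive Hspa8 was at 7.72. Of the windows of Hspa1b, Hspa1a and Hspa8, 62.3%, 60.3% and 49.0% occur in other genes, and 71.4% of those of Hspa1l in genes that overlap it, so the levels of all 4 are uncertain. Stress, p53 and apoptosis genes were present in 25 of 30 cases (median 3.42), with Hspa5 (7.87), Bax (6.93) and Ccng1 (6.84) highest. The survival gene Mcl1 (6.67) exceeded Bcl2l1 (3.58) in 6 of 6 libraries, and Bcl2 was at -6.91. Of 20 immediate early genes 12 were present, led by Jund (7.68) and Ier2 (5.13), while Fos (-1.29), Egr1 (-4.75) and Fosb (-6.64) were absent and Egr2 and Egr3 had no read.

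DNA methylation genes were present in 12 of 13 cases (median 4.18). Dnmt3l (5.04) and Dnmt3b (4.95) could not be ordered, with the former higher in 4 of 6 libraries, and both exceeded Dnmt1 (4.18) and Dnmt3a (2.66). Dnmt3c, of male germ cells, was at -3.79. Of 21 imprinted and X-inactivation genes 15 were present (median 1.16). Xist, the RNA that coats the inactive X chromosome, ranged from 5.00 to 5.47 with a median of 5.20, beside the Y-linked Eif2s3y and Ddx3y in the same pools. The imprinted genes Snrpn (6.30) and Igf2r (5.10) were high, H19 spread widely at 1.16 ± 1.21, and Dlk1 (-6.70) was absent.

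Reference genes were all present, 18 of 18 with a median of 5.61, from Actb (10.47) to Tbp (1.40 ± 0.15). H2afz averaged 7.02 ± 0.08, with 69.6% of its windows shared with other genes. Over all lists, 734 of 1037 genes in the table (70.8%) were present against 30.9% of all genes. The lists were made of genes known for roles in embryos or tissues, so they are no random sample. Members nearest the level called present were Smad1 (0.01), Fzd3 (0.01), Slc7a2 (0.04) and Ldhb (0.04) on the upper side, and Nrarp (-0.03), Acvr1 (-0.10), Rps6ka5 (-0.12) and Fosl2 (-0.13) on the lower. Each of these 8 genes had libraries on both sides of 0.

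**Figure D4:**
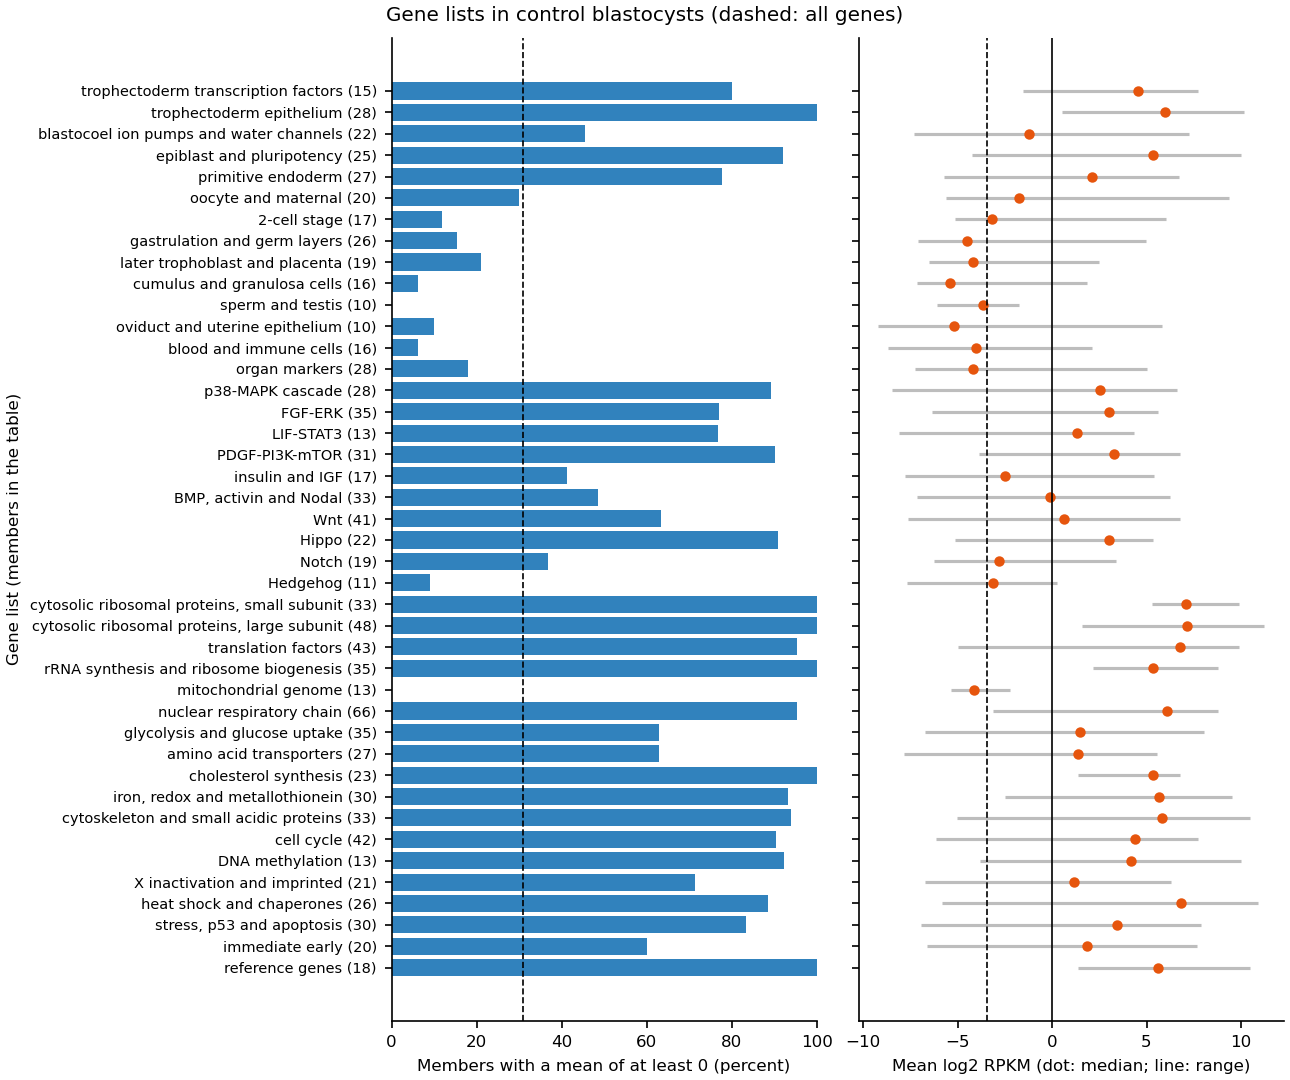
For each of 42 gene lists (vertical axis, with the number of members in the table), the percent of members with a mean of at least 0 (left, bars) and the median mean log2 RPKM (right, dots) with the lowest to highest member (lines). Dashed lines give all genes, at 30.9% and -3.45. The ribosomal protein lists reach 100% and the mitochondrial genome and sperm lists 0%.

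The 6 libraries resembled one another closely. Across the 10593 genes present, which are not independent replicates, Pearson's r between libraries was 0.981 to 0.990 in the 3 pairs of the same time and 0.983 to 0.988 in the 12 pairs of different times. The median SD over the 6 libraries was 0.17 (quartiles 0.13 and 0.24), against 0.16 within time points. Libraries of different times thus differed about as much as libraries of the same time. The median SD was 0.26 for genes between levels 0 and 2 and 0.14 between 4 and 6.

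Among genes with a mean of at least 4, the largest SDs belonged to Gm15564 (1.51), Rmrp (1.42), Gm42418 (1.38), Lars2 (1.22), Tmsb4x (0.81), Gm26917 (0.81), Adh1 (0.62), Fam25c (0.52), Tspan8 (0.50) and Lgals1 (0.48). Rmrp, the RNA of a ribonuclease that processes ribosomal RNA, was at 6.88 in replicate 1 at 4 h and at 3.12 to 4.79 elsewhere. Lars2, a mitochondrial leucyl-tRNA synthetase, was at 8.21 there and at 4.97 to 6.03 elsewhere. Gm15564, Gm42418 and Gm26917 were also highest there, so 5 of the 10 followed the same library. Gm15564 is annotated as antisense, and although the library kit keeps the strand of the RNA, the strand setting of the counting is not stated, so its reads may include those of a gene on the other strand. Tmsb4x, an actin-binding peptide, was instead lowest in replicate 2 at 4 h, at 3.01 against 4.24 to 5.34 elsewhere.

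Among the steadiest genes at that level were Tram1 (SD 0.02), Agfg1, Gna13 and Tor1aip2 (each 0.03), and Rbbp7, Zpr1, Rtf1, Hspa4 and Tprgl (each 0.04). Tram1, of the protein translocation channel, kept between 4.98 and 5.04. Deviations went with transcript length in opposite directions in the libraries at 7 h: across genes present, Spearman's rho of the deviation from the mean with length was -0.421 in replicate 1 and 0.351 in replicate 2. Genes shorter than 1000 bases deviated by a median of 0.20 in the former and -0.18 in the latter.

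**Figure D5:**
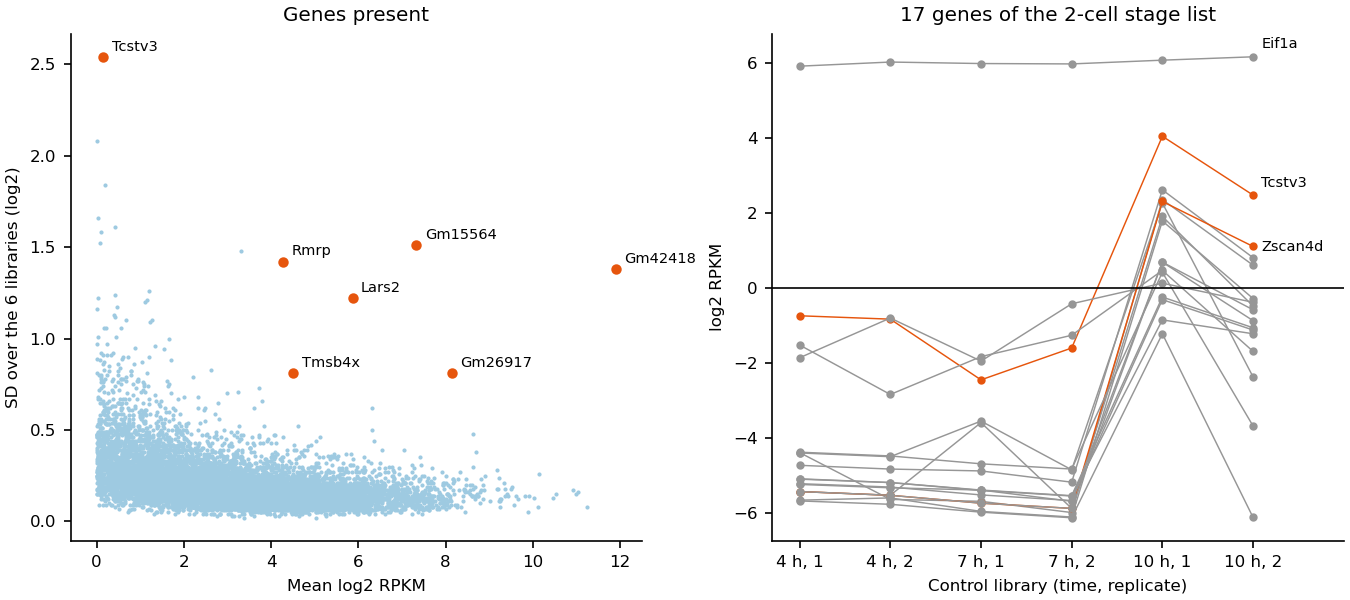
Left, SD over the 6 control libraries (log2, vertical axis) against mean log2 RPKM (horizontal axis) of genes present. Right, log2 RPKM (vertical axis) of 17 genes of the 2-cell stage list in each library (horizontal axis), with Tcstv3 and Zscan4d in colour. In the right plot both 10 h libraries lie above the other 4 for 15 of the 17 genes, against 6.38% of all genes and 10.6% of those with a read.

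Whether levels moved over the hours was tested with the limma moderated F test over 4, 7 and 10 h, keeping genes that reached 1 RPKM in 2 or more of the 6. Of 11044 genes tested, 5 passed a Benjamini-Hochberg adjusted p of 0.05 (0.0453%), and 793 (7.18%) had an unadjusted p under 0.05. All but a few genes thus showed no difference past the threshold with 2 libraries per time. Of the 5, 4 reached 1 RPKM only in the 2 libraries at 10 h. They had to differ to be tested, so their p is no support for a change over time, and their levels are given as a description.

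Tcstv3, a gene active in 2-cell embryos, was at -0.74 and -0.83 at 4 h, -2.45 and -1.60 at 7 h, and 4.05 and 2.48 at 10 h. Its mean at 10 h lay above that at 4 h by 4.04 on the log2 scale. Gm8994 was at -2.73 to -2.20 at 4 and 7 h and at 2.96 and 2.85 at 10 h, a difference of 5.38 over 4 h. Gm5580 was at -1.64 to -1.08 and then at 2.06 and 2.11, a difference of 3.67. BC147527, next to Tcstv3 on chromosome 13, was at -4.92, -5.02, -5.23 and -5.37 at 4 and 7 h and at 3.68 and 2.69 at 10 h, a difference of 8.15 over 4 h. BC147527 had no read at 4 or 7 h, so the size of its difference depends on the 0.9 of a read written there. So does its spread within those times, and its p, with or without the filter, is thus no support for a change. Without the filter, over all 34245 genes, of which 13657 had no read, the adjusted p (limma, Benjamini-Hochberg) was 0.0233 for each of Gm8994, Gm5580 and BC147527, higher in 2 of 2 libraries at 10 h by the differences given. For Tcstv3 it was 0.127, so this gene did not pass. The spread of the 13657 genes without a read is set by depth alone and enters the fit without the filter. Every p from that fit carries this limit, also those of Gm8994 and Gm5580. Over the alternatives that tested them, the adjusted p (limma, Benjamini-Hochberg) reached from 2.23e-05 to 1 for Gm8994, 0.000281 to 0.83 for Gm5580, 0.000174 to 0.361 for BC147527 and 0.0028 to 1 for Tcstv3.

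The histone gene Hist1h2ak was at 2.06 and 1.48 at 4 h, -2.05 and -1.61 at 7 h, and -0.32 and 0.71 at 10 h. The moderated F test over all 3 times passed (limma, Benjamini-Hochberg adjusted p = 0.0422), with means of 1.77, -1.83 and 0.20 and with 2 of 2 libraries at 7 h below the other 4. Single pairs of times were not tested. Without the filter the adjusted p (limma, Benjamini-Hochberg) of the same values was 0.175, and over the alternatives it ran from 1.09e-11 to 0.813. Its values rest on 2 to 28 reads per library, and histone messages of this class mostly lack a poly(A) tail.

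Among the next genes by p were Gm4312, Gm21731, Slc10a6 and Cd68, which did not pass. Their adjusted p (limma, Benjamini-Hochberg) ran from 0.0693 to 0.0812, and their differences between 10 and 4 h were 6.50, 5.79, 2.72 and 1.19, each with 2 of 2 libraries at 10 h above both at 4 h. Gm4312 had no read at 4 or 7 h, and Gm21731 had none at 4 h. Their differences, and the spread within those times behind their p, depend on the value written for no read. The p of Gm4312, with or without the filter, is thus no support for a change over time. Gm4312, Gm21731 and Slc10a6 also reached 1 RPKM only in the libraries at 10 h. Like most of the genes called, they had to differ to be tested, and their p carries that limit. Without the filter the adjusted p (limma, Benjamini-Hochberg), for the same differences and libraries, was 0.0233 for Gm4312, which then passed, 0.101 for Gm21731, 0.442 for Slc10a6 and 0.13 for Cd68. Over the alternatives that tested them, the lowest adjusted p (limma, Benjamini-Hochberg) of these 4 genes was 0.000527, 0.0255, 0.0144 and 0.0133 in that order, and the highest was 1 for each. The number of genes called rested on single libraries. It was 0 without replicate 1 and 0 without replicate 2 at 4 h (limma, 431 and 1133 genes at an unadjusted p under 0.05), 29 and 23 without replicate 1 and 2 at 7 h, with all 5 genes among them, and 74 and 89 without replicate 1 and 2 at 10 h, with 1 of the 5, Hist1h2ak, among them. The other 4 did not reach the filter without either library at 10 h and were not tested there. The number was 73 without a filter, with 3 of the 5 among them, and 7 with a filter of 10 RPKM, which none of the 5 reached. It was also 0 in limma when all 12 libraries shared the estimate of spread (449 unadjusted), and 1 after median centring, which was Gm8994.

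The 2-cell stage list was described over all 17 members in the table, since a filter on level keeps only members that were high at some time. Only Eif1a (6.03) and Tcstv3 (0.15) had a mean of at least 0. In 15 of 17 members both 10 h libraries lay above the other 4, as did 2184 of all 34245 genes (6.38%). By more than 1 on the log2 scale it was 12 of 17, against 156 of all genes (0.456%). A gene without any read cannot meet this, since its values are set by depth, and over the 20588 genes with a read, as all 17 members have, the shares were 10.6% and 0.758%. These counts were chosen after the values were seen and carry no test. Zscan4d, a telomere and chromatin factor of 2-cell embryos, was at -5.43, -5.53, -5.74 and -5.88 at 4 and 7 h, and at 2.31 and 1.11 at 10 h. Usp17lc, a deubiquitinase gene, was at -4.39, -5.64, -5.69 and -5.99, and then at 2.36 and 0.61. Zscan4d had no read in the 4 earlier libraries, and for both genes replicate 1 was the higher at 10 h.

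The members outside the 15 were Tdpoz1 and Duxf3, whose replicate 2 at 10 h, at -1.69 and -6.12, lay within the range of the 4 earlier libraries. Of the 15, Sp110, Eif1a and Tdpoz3 met the count by less than 1: the lower library at 10 h was at -0.38, 6.08 and -3.68, against at most -0.42, 6.03 and -4.38 earlier. The genes stand in families of near-identical copies, with 49.6% of the windows of Zscan4d and 31.4% of those of Tcstv3 found in other genes, so levels of single members are uncertain and members are not independent. Each library pooled 30 embryos, and whether a few cells or embryos or all of them carried these messages cannot be told apart. The 10 h libraries lay within the range of the others in depth, and replicate 1 had the most genes at or above 0. The part of the single pools in this difference was not tested.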

How the data were processed

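RNA of 30 embryos per library was selected for poly(A) tails and sequenced from single ends, with no spike-ins. The authors trimmed the reads with Trim Galore 0.4.1, aligned them to GRCm38 with HISAT2 2.0.5 and counted them in SeqMonk. The deposited table holds log2 RPKM values, which the authors made from gene counts scaled by transcript length and reads per library. The library kit was directional. The strand setting of the counting, the merging of isoforms and the counting of reads with several matches are not stated.

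The 6 control (DMSO) columns of the 12 were used as deposited, with no pseudocount. Depth, worked out from genes without a read (taken as 0.9 of a read) and their annotated lengths, was 17097676 to 23352633 reads per library. With this depth, whole reads were recovered from the values for 34245 of 34245 genes, within 0.02 of a read. Such reads cover counting error only. Genes were ranked by mean log2 RPKM and called present from 0. Time was tested with limma 3.58.1 (moderated F test with an intensity trend, Benjamini-Hochberg adjustment) in R 4.3.3, and the procedure was tested on simulated data. Other steps used Python 3.11.15 with numpy 2.4.6, pandas 2.3.3 and matplotlib 3.10.9. Sharing of sequence was measured as the percent of 50-base windows of a transcript found in other genes.

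Genes were named by a rule: the 30 highest by mean, up to 6 highest and up to 4 absent members of each of 42 gene lists, the p38 kinases and lineage factors, the reference genes Tbp and H2afz, the 10 largest and 10 smallest SDs from a level of 4, and the 10 smallest p over time. Further genes and the pairs compared were chosen after their values were seen. Some genes that the rule takes are not reported here. Members and lists were chosen with earlier results of these data known. Alternatives were another summary, threshold, scaling, filter, pseudocount or set of libraries, and a replicate block. Leaving out Gm42418, removing the trend on transcript length, asking for a difference over 1 among 2-cell genes, and counting over genes with a read, for this list and for genes on both sides of 0, were added after the data were seen. The inhibitor-treated libraries entered only 1 alternative fit.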

Additional observations from a re-analysis of the deposited data

Results flagged for a closer look

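In 34 measures taken in each of the 6 control libraries, the highest or lowest library was compared with its nearest neighbour, and in 4 of them the gap, as a share of the whole range, exceeded Dixon's critical value for 6 samples. Chance gives such a library in about 1 of 20 groups, and the measures are not independent. All 4 concerned replicate 1 at 4 h. The 100 highest genes took 28.0% of summed RPKM there, and Gm42418, related to ribosomal RNA, reached a log2 RPKM of 14.63, both the highest of the 6. The translation factor Eif5a, at 9.40, and Gm20509, which overlaps Khdc3, at 9.15, were the lowest of the 6. Without Gm42418 the share of the 100 highest genes was 20.6% there, within the 19.4% to 20.8% of all 6 libraries. The high share and the level of Gm42418 are thus not separate observations. Whether the low values of Eif5a and Gm20509 share a source with them was not tested.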

How the results depend on the processing

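The number of genes present was 10559 to 10660 with a library left out, 10636 by the median, 10708 by the mean RPKM, 9247 and 11925 with thresholds of 1 and -1, and 13041 as TPM (RPKM rescaled to the same sum in every library), all within 1.5 times of 10593. The share of summed RPKM in the 100 highest genes was 20.9% to 22.5% with a library left out and 20.2% without Gm42418. The median SD ranged from 0.14 to 0.19 over its alternatives, judged against its spread over genes. Of 504 counts of list members, 487 were within 1.5 times of the reported one and 17 were not. Members of the 2-cell list present numbered 1 without replicate 1 and 1 without replicate 2 at 10 h, in place of 2.

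TPM raises every value, by 1.87 on average, through its construction. This brought 35 of 495 genes, those the rule takes and all others named in the report, from below to above 0, with means of Acvr1 1.76, Amotl1 0.42, Atf3 0.90, Ccnd1 0.86, Cdk6 0.32, Elf5 0.33, Esx1 0.53, Fgfr3 1.65, Fos 0.57, Fosl1 0.53, Fosl2 1.73, Gm21731 0.42, Gm5580 1.66, Gm8994 1.19, Hspa1b 1.61, Il6 1.01, Lifr 0.43, Mapk12 0.87, Muc1 0.62, Myh7 0.59, Nrarp 1.84, Odf1 0.12, Otx2 1.69, Ovgp1 0.96, Pdgfb 0.97, Prl3b1 1.62, Ptch1 1.59, Rps6ka5 1.75, Smo 1.21, Sp110 0.98, Spry4 0.54, Srgn 0.31, Syna 0.68, Tdpoz1 0.42 and Tubb3 0.70. By the median of the 6 values, Fzd3 was at -0.01, Pth1r at -0.01, Slc10a6 at -0.06 and Tcstv3 at -0.78, below 0, and Nrarp at 0.05, above it. With a library left out, 10 of the 495 genes crossed 0. Of these, Fzd3 ranged from -0.05 to 0.05, Ldhb from -0.02 to 0.16, Nrarp from -0.12 to 0.11, Slc7a2 from -0.03 to 0.14 and Smad1 from -0.06 to 0.09, all near 0 as reported. Gm5580 ranged from -0.67 to 0.08 and was above 0 without replicate 1 (0.06) or 2 (0.08) at 4 h. Hist1h2ak ranged from -0.36 to 0.46 and was below 0 without replicate 1 (-0.36) or 2 (-0.24) at 4 h or replicate 2 at 10 h (-0.09). Otx2 ranged from -0.32 to 0.01, above 0 only without replicate 2 at 7 h. Slc10a6 ranged from -0.06 to 0.79, below 0 only without replicate 1 at 10 h. Tcstv3 ranged from -0.63 to 0.67, below 0 without replicate 1 (-0.63) or 2 (-0.31) at 10 h. The cause was not tested.

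The number of genes that limma called over time, 5 as reported, was 22 without the intensity trend (4 of the 5 among them), 1 after median centring, 1 after quantile normalization and 1 with the length trend removed (Gm8994 each time), 73 without a filter (3 of the 5), 7 with a filter of 10 RPKM (which none of the 5 reached), 16 and 27 on the scales log2(RPKM + 0.1) and log2(RPKM + 1) and 13 at a threshold of 0.1 (all 5 each time), and 0 with all 12 libraries in the fit (449 at an unadjusted p under 0.05). With a library left out it ranged from 0 to 89: 0 without replicate 1 or 2 at 4 h (431 and 1133 unadjusted), 29 and 23 at 7 h (all 5 among them), and 74 and 89 at 10 h (1 of the 5, since the other 4 were not tested). A time left with 1 library is assumed to vary like the others. The cause was not tested. A count test by edgeR or DESeq2 was not run, since the unit is log2 RPKM.

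With the replicate block, 4 genes were called (850 unadjusted), 3 of them among the 5. Deviations of replicate 1 correlated across genes with r of 0.0506, 0.0383 and 0.109 between times, so the numbers were not taken to pair the libraries. Depth limits genes near 0 and below, where few reads stand behind a value.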
